A study of Homo sapiens with 18 samples.

Results

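The heme synthesis genes described here are ALAS1, ALAS2, ALAD, UROS, UROD, CPOX, PPOX and FECH, which code for enzymes of the pathway, and SLC25A37, which codes for an iron carrier of the mitochondrion. They were chosen by symbol, in pathway order, as 9 of the 55766 gene names in the count table. All 9 had enough counts to be tested, with 13786 genes tested in all. The cells were K562, an established human leukaemia line with erythroid features, and all 3 groups carried a B2M:tdTomato transgene (tdTomato is a red fluorescent protein). In the TALE group, TALE proteins, which are programmable DNA-binding proteins, had silenced B2M by directing DNA methylation to its promoter. In the dCas9 group the targeting protein was dCas9, a Cas9 that binds DNA without cutting it, and a guide RNA plasmid was added. Both treatments used a mixture of 3 plasmids, each for a different repressor, and the third group was untreated. Each group had 3 RNA-seq libraries and 3 MeDIP-seq libraries. MeDIP-seq sequences DNA fragments that an antibody against methylated cytosine has pulled down. The time from treatment to collection is not given in the sources used here. The labels do not say that replicates were separate cultures. Each p-value therefore sets a group difference against the spread between these libraries, which may be technical.

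Heme is an iron-bearing ring that carries oxygen in haemoglobin and electrons in cytochromes. Its synthesis starts in the mitochondrion, where aminolevulinate synthase joins glycine and succinyl-CoA, continues in the cytosol, and returns to the mitochondrion for the last oxidations and the insertion of iron. ALAS1 is the form of the first enzyme found in all tissues, and ALAS2 is the form of red cell precursors. In erythroid cells GATA1 and KLF1 are known to bind the regulatory DNA of genes of this pathway, GATA1 at GATA motifs and KLF1 at CACCC motifs. Methylation of CpG dinucleotides at a promoter is known as a mark of silenced genes.

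The promoters of ALAS2, ALAS1 and CPOX are shown because they span the range of CpG content among the promoter entries used and differ in these motifs. Entries of RefSeq's promoter table for GRCh38.p14 were used for 7 of the 9 members (ALAS1, ALAS2, ALAD, UROD, CPOX, PPOX and FECH), with 9 start sites in all. UROS had no entry there, and SLC25A37 was left out of the search. Each line gives the 250 bases before the start, read on the gene's own strand. Capitals mark the letters AGATAA or TGATAA, for GATA, and CACCC, searched on both strands, so TTATCT and GGGTG are matches too. In ALAS2 the run of capitals near the start holds a pair of CACCC matches that overlap by one base. The first sequence is chrX:55030978-55031227 on the minus strand, the next chr3:52197833-52198082 on the plus strand and the last chr3:98593612-98593861 on the minus strand.
ALAS2: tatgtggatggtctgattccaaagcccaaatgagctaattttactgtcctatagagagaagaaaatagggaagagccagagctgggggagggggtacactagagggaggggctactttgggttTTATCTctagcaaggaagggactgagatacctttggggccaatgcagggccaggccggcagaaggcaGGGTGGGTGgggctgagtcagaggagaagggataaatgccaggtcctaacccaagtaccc
ALAS1: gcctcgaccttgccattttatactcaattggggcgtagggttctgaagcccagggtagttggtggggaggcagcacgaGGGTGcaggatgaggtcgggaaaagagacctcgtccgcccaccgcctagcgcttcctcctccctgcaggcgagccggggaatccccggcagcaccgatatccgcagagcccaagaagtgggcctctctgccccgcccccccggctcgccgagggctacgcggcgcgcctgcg
CPOX: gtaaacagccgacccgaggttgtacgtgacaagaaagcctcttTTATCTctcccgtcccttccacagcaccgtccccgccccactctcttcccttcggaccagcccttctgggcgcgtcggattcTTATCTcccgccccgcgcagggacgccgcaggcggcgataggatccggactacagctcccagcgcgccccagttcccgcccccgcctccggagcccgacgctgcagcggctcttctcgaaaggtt

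The ALAS2 window held 1 CpG, 1 GATA match at position -127 from the start and 2 CACCC matches. The ALAS1 window held 22 CpG, 0 GATA matches and 1 CACCC match, and the CPOX window held 27 CpG, 2 GATA matches and 0 CACCC matches. Over the 9 start sites, AGATAA or TGATAA was found in 3, those of ALAS2, CPOX and the second of the PPOX starts. It was found in 14.56% of the 35116 promoter windows of the table. CACCC was found in 5 of the 9 windows and in 54.7% of all windows. The ALAD windows overlap each other and share a CACCC match. The UROD and FECH windows and that of the first PPOX start held neither motif. A match describes letters only and is not evidence of binding.

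RNA libraries held 8460076 to 12050554 counts and MeDIP libraries 2529729 to 4492751. The targeted gene followed the labels: B2M had 48 to 79 counts in the untreated libraries, 3 to 7 in TALE and 2 to 3 in dCas9. The transgene entry had 3115 to 4109 counts in untreated, 128 to 196 in TALE and 140 to 205 in dCas9 libraries. Over all genes tested, edgeR called 0.0218%, 0.029% and 0% in TALE against untreated, dCas9 against untreated and TALE against dCas9. An unadjusted p under 0.05 was reached by 7.15%, 5.93% and 6.38% in the same order. All 14 erythroid markers on the list were tested and 0 were called by edgeR in any comparison. In the same order, 2, 2 and 1 of the 14 markers had an unadjusted p under 0.05. Their summed level was 9026 to 9652 CPM in untreated, 7278 to 11334 CPM in TALE and 7474 to 10814 CPM in dCas9 libraries, where CPM is the count scaled to a common library size and corrected for library composition. Of the markers of other cell types, CD3D stood at 14.8 to 29.6 CPM, LYZ at 14.6 to 26.7 CPM and EPCAM at 85.0 to 117.8 CPM. The fibroblast markers COL1A1 and COL1A2 stood at 0.989 to 3.15 and 3.83 to 8.81 CPM, and the B cell markers and DCN were too low to be tested. CD3D was lower in TALE against dCas9, with a log2 fold change of -0.46 (unadjusted p = 0.0172, edgeR adjusted p = 0.745). CD3E, CD2, CD14, MPO, CSF1R, KRT5 and CDH1 had at most 6 counts in any library. Mitochondrial genes took 7.15% to 10.3% of counts in untreated, 4.04% to 6.32% in TALE and 6.15% to 14.01% in dCas9 libraries, and the part of this in the results below was not tested.

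None of the heme synthesis genes was called in any comparison, and in each library each of them was expressed. The largest fitted differences were those of SLC25A37, which had a mean of 131 ± 19.7 CPM in TALE cells against 155 ± 13.8 in untreated and 155 ± 3.78 in dCas9 cells (SD, n = 3), and of ALAS1, with 39.3 ± 4.44 CPM in dCas9 against 34.1 ± 3.02 in untreated cells (SD, n = 3). Neither passed the test. Here a gene is called at a Benjamini-Hochberg adjusted p under 0.05 in edgeR's quasi-likelihood test over all 13786 genes. In bulk RNA, fewer cells that express a gene and less RNA per cell cannot be told apart. Counts of members were read against the whole table. In TALE against untreated, 0 of 9 members were called, against 0.0218% of all genes, and 0 of 9 had an unadjusted p under 0.05, against 7.15%. In dCas9 against untreated the counts were 0 of 9 at both levels, against 0.029% and 5.93% of all genes. In TALE against dCas9 they were again 0 of 9 at both, against 0% and 6.38% of all genes. DESeq2, run as an alternative, also called 0 of 9 in each comparison. The groups did not overlap in CPM in 0 of 9 members for TALE against untreated (12.5% of all genes), in 0 of 9 for dCas9 against untreated (11.6%) and in 1 of 9, SLC25A37, for TALE against dCas9 (9.38%).

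**Figure D1:**
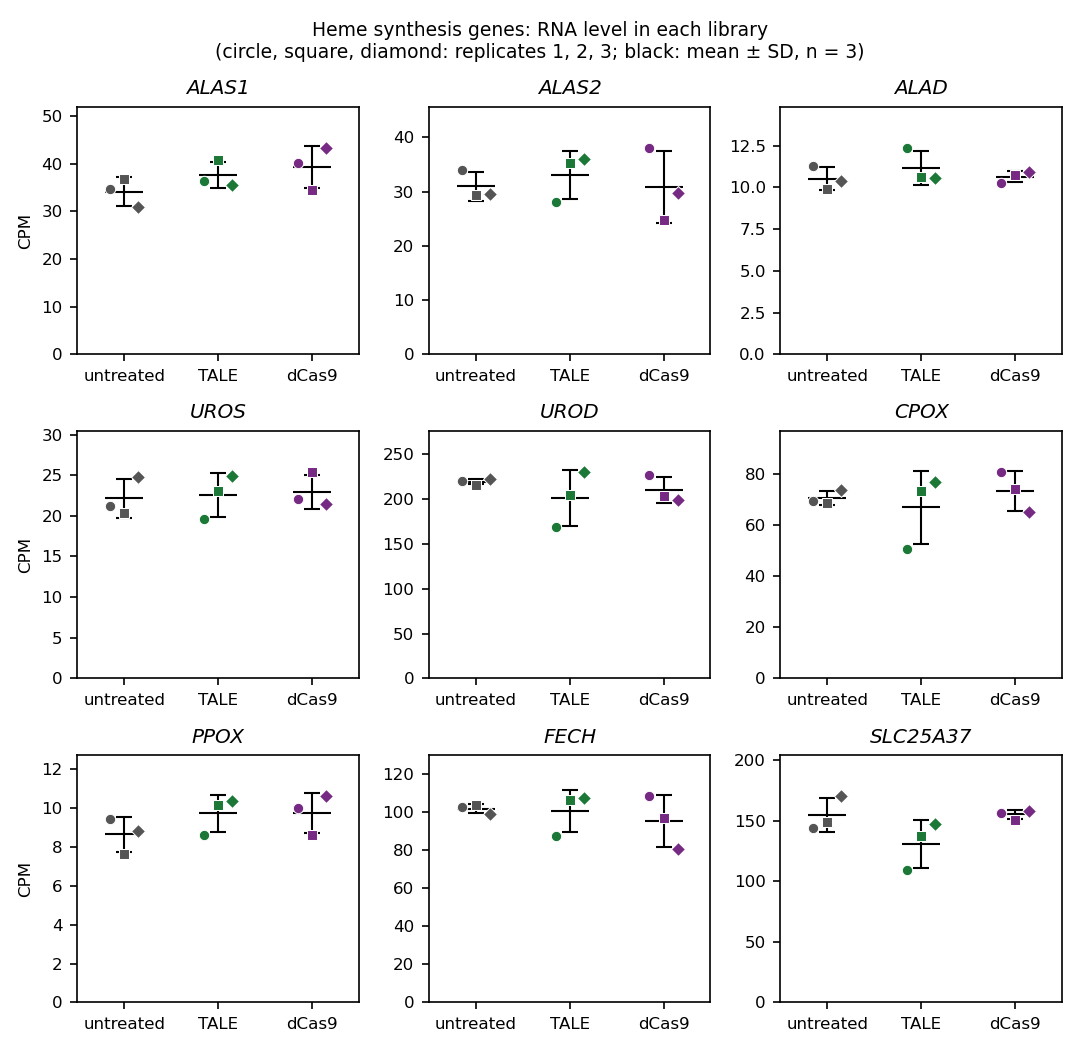
RNA level in CPM (y axis, from 0, scaled per gene) of each heme synthesis gene in the 3 untreated, 3 TALE and 3 dCas9 libraries; circles, squares and diamonds are replicates 1, 2 and 3, and black bars are the mean ± SD. The groups overlap in every panel except for TALE and dCas9 in SLC25A37, and TALE replicate 1 is the lowest library for UROS, UROD, CPOX and SLC25A37.

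The first step is made by 2 isoenzymes. Positions given here are gene spans of the GENCODE annotation on GRCh37. ALAS1 (chr3:52232102-52248343, plus strand), the form of all tissues and in liver the step that heme itself represses, stood at 34.6, 36.8 and 30.9 CPM in untreated replicates 1, 2 and 3, at 36.5, 40.8 and 35.6 CPM in the TALE replicates and at 40.1, 34.5 and 43.2 CPM in the dCas9 replicates. The untreated libraries lay low, but the highest of them was above the lowest library of both treated groups. The fitted log2 fold change was 0.20 in dCas9 against untreated (SE 0.124, edgeR adjusted p = 0.911), with a 95% interval of -0.06 to 0.47. It was 0.14 in TALE against untreated (SE 0.124, edgeR adjusted p = 0.844), with an interval of -0.12 to 0.40. ALAS2 (chrX:55035488-55057410, minus strand), the erythroid form, whose loss gives X-linked sideroblastic anaemia, stood at 34.0, 29.4 and 29.5 CPM in untreated replicates 1, 2 and 3, at 28.0, 35.3 and 36.0 CPM in the TALE replicates and at 38.0, 24.8 and 29.7 CPM in the dCas9 replicates. Both its lowest and its highest library were dCas9 libraries, so the spread within 1 group covered that of the other groups. Its within-group coefficient of variation (CV, the SD as a percent of the mean) averaged 14.5%, the highest of the 9 members. The median CV of genes at a like level was 10.2%. The fitted log2 fold change of ALAS2 was 0.09 in TALE and -0.0071 in dCas9 cells, each against untreated.

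Both isoenzymes were present at like levels. Per kb of merged exons, the ratio of ALAS2 to ALAS1 was 1.13 ± 0.123 in untreated, 1.09 ± 0.152 in TALE and 0.973 ± 0.175 in dCas9 libraries (SD, n = 3). It was 1.22, 0.989 and 1.19 in the untreated replicates, 0.952, 1.07 and 1.26 in the TALE replicates and 1.17, 0.893 and 0.852 in the dCas9 replicates. Each group had libraries on both sides of 1, and no test was made of the ratio. Per kb of coding sequence the group means were 0.999, 0.966 and 0.860 in the same order.

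ALAD (chr9:116148592-116163570, minus strand), which joins a pair of aminolevulinate molecules into porphobilinogen and is inhibited by lead, stood at 11.3, 9.89 and 10.4 CPM in untreated replicates 1, 2 and 3, at 12.3, 10.6 and 10.6 CPM in the TALE replicates and at 10.3, 10.8 and 10.9 CPM in the dCas9 replicates. It was the steadiest member, with a mean within-group CV of 6.23%, against a median of 13.98% for genes at a like level. Its fitted log2 fold change was 0.08 in TALE and 0.014 in dCas9 against untreated.

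UROS (chr10:127473549-127511827, minus strand) closes the ring to uroporphyrinogen III, and its loss gives congenital erythropoietic porphyria. It stood at 21.2, 20.4 and 24.8 CPM in untreated replicates 1, 2 and 3, at 19.6, 23.04 and 24.9 CPM in the TALE replicates and at 22.1, 25.4 and 21.4 CPM in the dCas9 replicates. The 3 groups covered almost the same range. Its fitted log2 fold changes were 0.027 in TALE and 0.05 in dCas9 against untreated. UROD (chr1:45476622-45481247, plus strand), which removes carboxyl groups from the ring in the cytosol, was the most abundant member and stood at 219.7, 216 and 222 CPM in untreated replicates 1, 2 and 3, at 169, 205 and 229.8 CPM in the TALE replicates and at 226, 203 and 199 CPM in the dCas9 replicates. The untreated libraries were within a CV of 1.35%, whereas TALE libraries held both the lowest and the highest value of the 9. The fitted log2 fold change of UROD was -0.12 in TALE (SE 0.126, edgeR adjusted p = 0.871) and -0.06 in dCas9 cells, each against untreated. Reads of UROD are uncertain in part, because HECTD3 overlaps it on the opposite strand and the use of strand in the counting is not given in the sources used here. The same holds for ALAS2 with APEX2 and for PPOX with B4GALT3.

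The last steps lie in the mitochondrion. CPOX (chr3:98298290-98312492, minus strand), which oxidises coproporphyrinogen III in the intermembrane space, stood at 69.3, 68.5 and 73.8 CPM in untreated replicates 1, 2 and 3, at 50.7, 73.1 and 77.0 CPM in the TALE replicates and at 80.6, 73.9 and 65.0 CPM in the dCas9 replicates. TALE replicate 1 was the lowest of the 9 libraries and lay well below its group, while the other two TALE libraries lay within or above the untreated range. The fitted log2 fold change of CPOX in TALE against untreated was -0.07 (SE 0.141, edgeR adjusted p = 0.941), and it was 0.09 without TALE replicate 1. Another gene, listed as ENSG00000285635 in the annotation, overlaps CPOX on the same strand. PPOX (chr1:161135846-161147803, plus strand), which makes protoporphyrin IX and whose partial loss gives variegate porphyria, was the least abundant member. It stood at 9.43, 7.66 and 8.83 CPM in untreated replicates 1, 2 and 3, at 8.62, 10.2 and 10.4 CPM in the TALE replicates and at 10.0, 8.59 and 10.6 CPM in the dCas9 replicates. With 62 to 132 counts per library it had the fewest counts of the 9 members and the widest intervals, from -0.19 to 0.53 in TALE and from -0.20 to 0.53 in dCas9, each around a log2 fold change of 0.17 against untreated. Both treated groups had 2 libraries above every untreated one.

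FECH (chr18:55211609-55253964, minus strand), the ferrochelatase that inserts iron into the ring, stood at 103, 104 and 99.2 CPM in untreated replicates 1, 2 and 3, at 87.7, 106 and 108 CPM in the TALE replicates and at 108, 97.0 and 80.8 CPM in the dCas9 replicates. The untreated libraries lay close together, and the dCas9 group held both the highest and the lowest library. Its fitted log2 fold change was -0.02 in TALE and -0.09 in dCas9 against untreated, with edgeR adjusted p = 0.992 and 0.991. SLC25A37 (chr8:23386469-23432976, plus strand), or mitoferrin, carries iron across the inner mitochondrial membrane for this last step. It stood at 144, 149 and 170.1 CPM in untreated replicates 1, 2 and 3, at 109, 137 and 147 CPM in the TALE replicates and at 156, 151 and 158 CPM in the dCas9 replicates. All 3 TALE libraries were below all 3 dCas9 libraries, and 2 of them were below every untreated library. The fitted log2 fold change was -0.24 in TALE against dCas9 (SE 0.1254, unadjusted p = 0.0685, edgeR adjusted p = 0.799), with a 95% interval of -0.51 to 0.02. The exact two-sided permutation test of TALE against dCas9 gave p = 0.1, the smallest that 3 libraries against 3 can give. Against untreated cells the log2 fold change in TALE was -0.24 (SE 0.126, unadjusted p = 0.0751, edgeR adjusted p = 0.732), with an interval of -0.50 to 0.03. TALE replicate 1 set much of both values: without it they were -0.13 against dCas9 and -0.12 against untreated. CD3D was also lower in TALE against dCas9, at the value given above. The other T cell markers on the list, CD3E and CD2, had too few counts to be tested. Any part of CD3D in the SLC25A37 difference was not tested. In dCas9 against untreated the SLC25A37 difference was 0.0058, with an interval of -0.26 to 0.27.

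**Figure D2:**
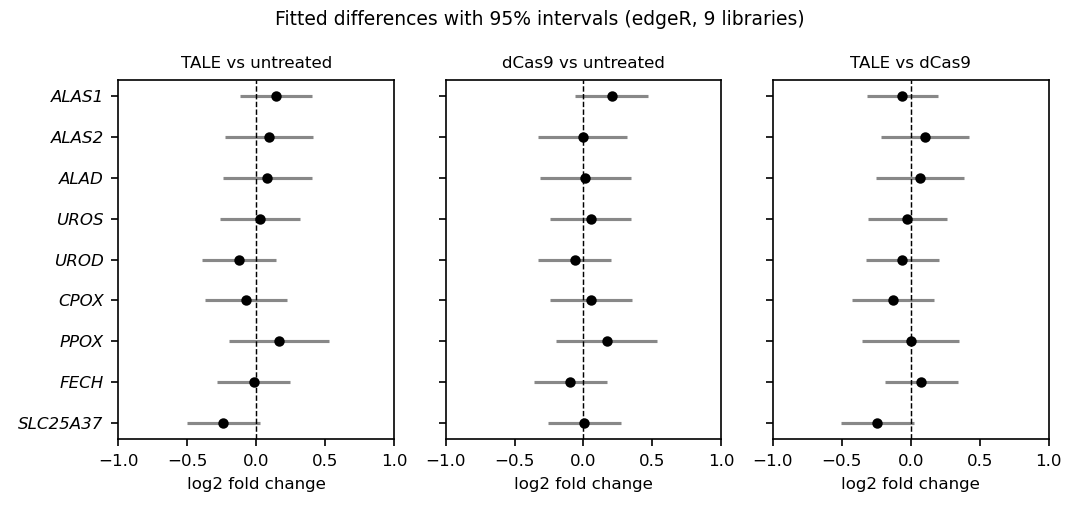
Fitted log2 fold change (points) and 95% interval (lines) of the 9 heme synthesis genes in TALE against untreated, dCas9 against untreated and TALE against dCas9, from 1 edgeR model of the 9 RNA libraries. Every interval crosses 0, and those of SLC25A37 in both TALE panels reach least far past it.

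The intervals of the fits give the differences that these libraries leave possible. The outer bounds of the 95% intervals over the 9 members ran from 0.706-fold to 1.44-fold in TALE against untreated. They ran from 0.780-fold to 1.44-fold in dCas9 against untreated, and from 0.704-fold to 1.34-fold in TALE against dCas9. These bounds are the extremes of single genes, and the interval of each other member reached less far on that side. Adjusted p-values of the edgeR test ran from 0.732 to 0.992 in TALE against untreated, from 0.911 to 0.999 in dCas9 against untreated and from 0.799 to 0.999 in TALE against dCas9. The fitted change was positive in 5 of 9 members in TALE and in 6 of 9 in dCas9, each against untreated, and in 3 of 9 in TALE against dCas9. The comparisons share libraries, so these counts are not independent. The median log2 fold change of the members was 0.03, 0.01 and -0.03 in the same order, beside medians of 0.0024, -0.0031 and 0.0017 over all genes tested. The median size of the change was 0.0942, 0.0541 and 0.0679 for the members, and 0.137, 0.123 and 0.134 for all genes. The set of all genes was not matched to the members for level. Of all genes tested, 36.0% had a lower mean CPM than PPOX, the least abundant member.

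No library was the lowest or the highest in every member. TALE replicate 1 was the lowest of the 9 libraries in 4 of the 9 members, UROS, UROD, CPOX and SLC25A37, and the highest in 1, ALAD. The dCas9 replicate 1 was the highest in 3, ALAS2, CPOX and FECH. The mean within-group CV of the members ran from 6.23% to 14.5% with a median of 9.29%, beside a median of 13.2% over all genes tested. That median is not matched for level. For genes at a like level the medians ran from 8.98%, at the level of UROD, to 14.7%, at that of PPOX. ALAS2, CPOX and FECH lay above the median of their like-level genes, and the other members below. The level of the library with the most exceeded that of the library with the least by 1.25-fold in ALAD and by 1.59-fold in CPOX, the narrowest and widest of the 9.

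Levels of different members were compared per length, since longer transcripts give more reads. Per kb of merged exons, the mean over the 9 libraries was 52.1 CPM per kb for UROD, 22.2 for CPOX, 18.4 for SLC25A37, 15.5 for ALAS2, 14.6 for ALAS1 and 8.92 for FECH. It was 2.37 for UROS, 2.18 for ALAD and 1.98 for PPOX. The range of UROD did not overlap that of CPOX below it, and FECH was separate from ALAS1 above it and from UROS below it. CPOX, SLC25A37, ALAS2 and ALAS1 overlapped with their neighbours in this order, as did UROS, ALAD and PPOX. CPOX was nevertheless above SLC25A37 in 9 of 9 libraries, while ALAS2 was above ALAS1 in only 5 of 9.

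The order depended on the length used. Per kb of coding sequence UROD had 179 CPM per kb, SLC25A37 136, FECH 74.6, CPOX 51.6, UROS 19.03, ALAS1 18.4, ALAS2 17.3, ALAD 10.6 and PPOX 5.46. UROD came first and PPOX last by both lengths. FECH, SLC25A37 and UROS, whose merged exons span 11128, 7996 and 9505 bp against coding lengths of 1330, 1078 and 1184 bp, moved up. Which transcript forms the cells use was not measured here.

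**Figure D3:**
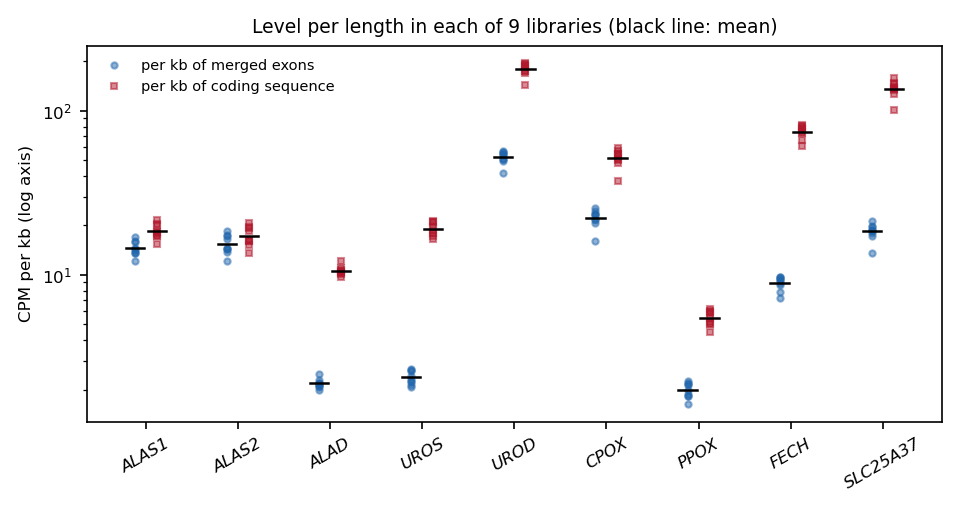
Level of each heme synthesis gene in the 9 RNA libraries (points; black lines are means) as CPM per kb of merged exons (circles) and per kb of coding sequence (squares), on a log axis. UROD is highest and PPOX lowest by either length, at means of 52.1 and 1.98 CPM per kb of merged exons and 179 and 5.46 per kb of coding sequence.

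Other genes of heme and iron handling were followed on lists drawn up for these pathways. Of these, 0 were called by edgeR in any comparison, against at most 0.029% of all genes. Transport of intermediates had 8 of 8 listed genes tested, iron-sulfur cluster assembly 6 of 6, heme a and cytochrome c 3 of 3, heme transport and breakdown 5 of 8, and regulators 9 of 10. At an unadjusted p under 0.05 only 1 gene passed on these lists and in these comparisons, HMOX2 in TALE against untreated. Of all genes tested, 7.15% passed in TALE against untreated, 5.93% in dCas9 against untreated and 6.38% in TALE against dCas9. HMOX2, the constitutive heme oxygenase, had 31.0 ± 4.61 CPM in TALE and 25.6 ± 1.61 CPM in untreated cells (SD, n = 3). Its log2 fold change was 0.27 (SE 0.129, unadjusted p = 0.04997, edgeR adjusted p = 0.698). The inducible form HMOX1 had at most 3 counts in any library and was not tested.

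Among transporters, SLC25A28, a paralog of SLC25A37, had 4.14 ± 0.246 CPM in TALE against 3.13 ± 0.871 in untreated cells (SD, n = 3), a log2 fold change of 0.41 (edgeR adjusted p = 0.805). Its level was far below that of SLC25A37 in every library, with 1.97 to 4.41 CPM. ABCB6, a porphyrin transporter, had 3.90 ± 0.426 CPM in TALE against 5.35 ± 1.18 in dCas9 cells (SD, n = 3), a log2 fold change of -0.45 (edgeR adjusted p = 0.808). TMEM14C, which brings protoporphyrinogen into the mitochondrial matrix, ran from 84.6 to 157.8 CPM, with a log2 fold change of -0.19 in dCas9 against untreated (edgeR adjusted p = 0.974). None of these was called.

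Iron-sulfur clusters are needed by the FECH protein. GLRX5, which passes such clusters on, had 61.4 ± 6.60 CPM in TALE, 56.5 ± 5.22 in untreated and 53.1 ± 5.81 in dCas9 cells (SD, n = 3). Its log2 fold change was 0.12 in TALE against untreated and 0.21 in TALE against dCas9. HSCB, a co-chaperone of cluster assembly, had 7.18 ± 2.69 CPM in dCas9 against 5.58 ± 0.857 in untreated cells (SD, n = 3), with dCas9 replicate 1 at 10.3 CPM and the other two at 5.69 and 5.55. Those other two lay within the range of the untreated libraries. COX15, of heme a synthesis, had a log2 fold change of -0.22 in dCas9 against untreated (edgeR adjusted p = 0.899). HCCS, which attaches heme to cytochrome c, had one of 0.05 in TALE against untreated and of 0.23 in TALE against dCas9 (edgeR adjusted p = 0.958 and 0.808). FLVCR1, a heme and choline transporter, had one of -0.16 in TALE against dCas9 (edgeR adjusted p = 0.867).

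The regulators on the list were expressed, apart from PPARGC1A, which was not tested. GATA1 ran from 82.0 to 109 CPM and KLF1 from 51.6 to 76.0 CPM over the 9 libraries. Of the 9 tested, 8 had a positive fitted change in TALE against untreated, with a median log2 fold change of 0.10. Of all genes tested, 50.6% had a positive change there. The count was 4 of 9 in dCas9 against untreated, with a median of -0.02 (49.2% of all genes positive), and 8 of 9 in TALE against dCas9, with a median of 0.09 (50.4% of all genes positive). None of the 9 was called. The gene with the lowest p was IREB2, an iron regulatory protein, in TALE against untreated, at 0.17 (edgeR adjusted p = 0.803). It was NFE2, an erythroid transcription factor, in dCas9 against untreated, at 0.21 (edgeR adjusted p = 0.919). It was KLF1 in TALE against dCas9, at 0.24 (edgeR adjusted p = 0.809). Among the erythroid markers, HBA1 had the lowest p in dCas9 against untreated, with a log2 fold change of 0.65 (edgeR adjusted p = 0.262), and it was not called. Its reads are hard to tell from those of its near-identical copy HBA2.

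MeDIP counts were given for 198884 regions, of which 60 lay over the span of a heme synthesis gene or within 2 kb of its start. Of the 60, 45 lay in introns, 11 touched an exon, 3 lay in the gene span outside the canonical transcript and 1 lay upstream. They ranged from 32 to 2446 bp in width and had a median of 2.46 CpG per 100 bp. FECH had 15 of them, UROS 13, SLC25A37 12, ALAD 6, PPOX 5, ALAS1 4, CPOX 4 and UROD 1. ALAS2 had 0.

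The absence of a region at ALAS2 held for its whole span of 21923 bp, and 0 peaks of the 9 deposited peak lists touched it. Of 7044 protein-coding genes with a span within 2-fold of that of ALAS2, 17.7% had no region, and of the 227 such genes on chromosome X, 52 (22.9%) had none. A gene with no region is thus common at this length. The window of 300 bp around the ALAS2 start held 3 CpG, and 9.24% of protein-coding starts held fewer. The same window held 13 CpG in UROD, 19 in UROS, 25 in PPOX, 28 in ALAD, 30 in SLC25A37, 31 in CPOX and 34 in both ALAS1 and FECH, beside a median of 23 over 20163 protein-coding starts. MeDIP pulls down fragments by their number of methylated CpG, so the lack of a region at a CpG-poor start says nothing on its methylation.

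No member had a region over its start site, and of all protein-coding starts 1.31% had one. Within 2 kb of the start there was a region in 3 of the 9 members, UROS, PPOX and ALAD, beside 43.0% of all protein-coding genes. The UROS region had too few counts to be tested. The PPOX region chr1:161137361-161137597, in an intron 1145 bp downstream of the start, had 14, 11 and 21 counts in untreated, 7, 17 and 10 in TALE and 12, 15 and 11 in dCas9 libraries. The ALAD region chr9:116164501-116164786, 937 bp upstream of the start, had 25, 15 and 17 counts in untreated, 15, 9 and 12 in TALE and 16, 17 and 10 in dCas9 libraries. The groups overlapped in each of these counts once scaled for depth: the PPOX region's fitted log2 fold changes against untreated were -0.32 in TALE and -0.23 in dCas9, and the ALAD region's were -0.54 and -0.37, with edgeR adjusted p = 1.00 in all cases.

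**Figure D4:**
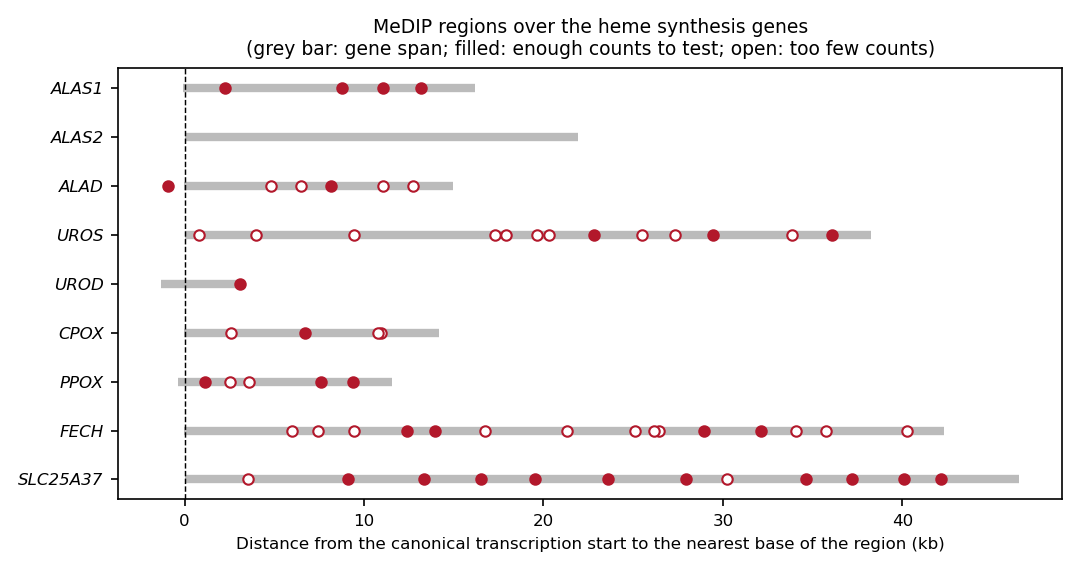
MeDIP regions (circles) of the 9 heme synthesis genes by distance in kb from the canonical transcription start (dashed line at 0) to the nearest base of the region; grey bars are gene spans, filled circles had enough counts to be tested and open circles did not. No circle lies on a start, ALAS2 has none, and UROS, PPOX and ALAD have one within 2 kb.

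Of the 60 regions, 28 in 8 genes had enough counts to be tested by edgeR, and 0 were called in any comparison. In TALE against untreated 0 of 28 were called, against 0% of all 105652 regions tested, and 1 of 28 had an unadjusted p under 0.05, against 4.74%. In dCas9 against untreated 0 of 28 were called, against 0.000947%, and 3 of 28 had an unadjusted p under 0.05, against 4.69%. In TALE against dCas9 the counts were 0 and 3 of 28, against 0.000947% and 4.47%. Fitted log2 fold changes of the 28 regions ran from -0.61 to 0.78 in TALE and from -1.47 to 0.67 in dCas9, each against untreated. Their 95% intervals reached from -1.65 to 1.82 and from -2.68 to 1.49, so that even changes of over 2-fold could not be told from none in the thinnest regions.

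The regions with the lowest p of their gene were as follows in pathway order. In ALAS1 it was the intronic chr3:52234446-52234664, with 16, 4 and 8 counts in untreated, 8, 17 and 19 in TALE and 6, 11 and 1 in dCas9 libraries. Its log2 fold change in TALE against dCas9 was 1.37 (SE 0.576, unadjusted p = 0.0198). The dCas9 libraries alone spanned 1 to 11 counts. In ALAD it was the intronic chr9:116155028-116155405, at -0.43 in dCas9 against untreated (unadjusted p = 0.161). In UROS it was the intronic chr10:127488777-127489033, at 0.78 in TALE against untreated (unadjusted p = 0.0734). The single UROD region, chr1:45480991-45481349 at exon 10 and the gene's end, had 4 to 25 counts within the untreated group, and its lowest unadjusted p was 0.460, in TALE against dCas9. Only 1 of the 9 deposited peak lists had a peak over UROD, that of untreated replicate 3, the library with 25 counts.

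In CPOX the intronic region chr3:98305378-98305733 had 11, 15 and 25 counts in TALE and 26, 43 and 16 in dCas9 libraries. The log2 fold change in TALE against dCas9 was -0.66 (SE 0.333, unadjusted p = 0.0487). In PPOX the region chr1:161143817-161144092, in the gene span past the canonical transcript, had 39, 19 and 33 counts in untreated and 21, 14 and 13 in dCas9 libraries. Its log2 fold change in dCas9 against untreated was -0.85 (SE 0.344, unadjusted p = 0.0158). A neighbour, chr1:161145581-161145874, was named after its values were seen: it had 11, 12 and 15 counts in untreated and 2, 10 and 2 in dCas9 libraries, at -1.47 (unadjusted p = 0.0179). It too lies past the canonical transcript. B4GALT3 overlaps the PPOX span on the opposite strand, and whether these regions lie over B4GALT3 was not examined. In FECH the intronic chr18:55239719-55239963 ran from 0 to 31 counts, with a lowest unadjusted p of 0.244 in TALE against untreated. In SLC25A37 the region chr8:23428614-23431059, which is 2446 bp wide and covers exon 4 with coding sequence and UTR, had 51, 47 and 94 counts in untreated and 76, 70 and 93 in TALE libraries. Its log2 fold change in TALE against untreated was 0.42 (SE 0.203, unadjusted p = 0.0417). The intronic region chr8:23402964-23403484 of the same gene, also named after its values were seen, had 31, 46 and 34 counts in untreated, 12, 31 and 28 in TALE and 19, 34 and 20 in dCas9 libraries. Its fitted values had the other sign, at -0.60 in TALE (unadjusted p = 0.0550) and -0.62 in dCas9 (unadjusted p = 0.0452), each against untreated. The edgeR adjusted p of every one of these regions was 1.00.

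Summed over all its regions, the MeDIP level of a gene was also described, with no test. For SLC25A37 it was 106, 108 and 112 CPM in untreated, 124, 119 and 118 in TALE and 109, 120.0 and 108 in dCas9 libraries. The dCas9 libraries overlapped both other groups. For CPOX the sums were 16.0, 13.6 and 15.9 CPM in untreated, 11.1, 10.2 and 13.2 in TALE and 19.8, 18.2 and 17.3 in dCas9 libraries. For PPOX they were 24.9, 22.5 and 25.8, 18.9, 27.1 and 20.1 and 18.6, 13.2 and 16.0 CPM in the same order, where TALE overlapped untreated. The PPOX sums include the regions past its canonical transcript, in a span that B4GALT3 overlaps. Such sums were not made for other genes, so there is no share of all genes to read the order of the groups against. Those given rest on 24 to 83 counts per library for CPOX and PPOX. For ALAS1, ALAD, UROS, UROD and FECH the TALE libraries overlapped the untreated ones.

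**Figure D5:**
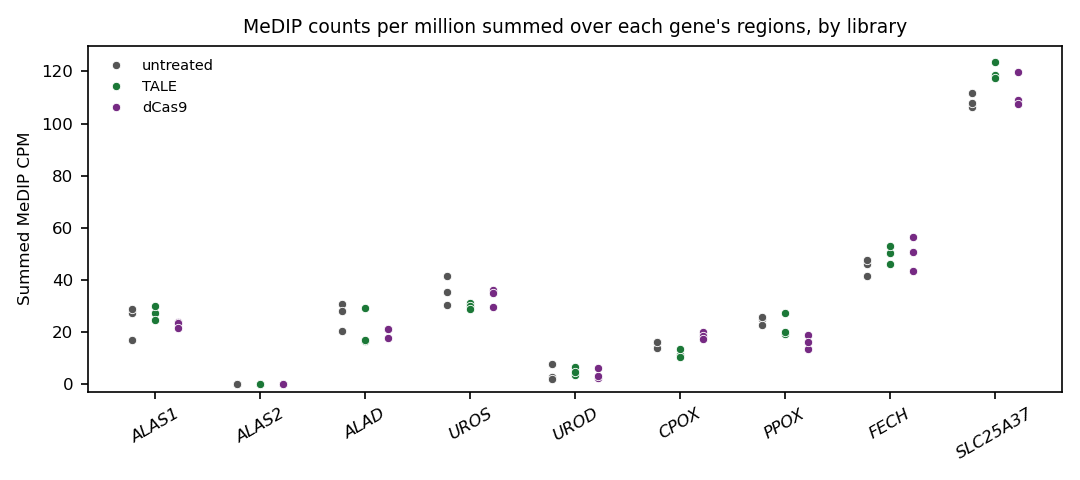
MeDIP CPM summed over each heme synthesis gene's regions (y axis) in each of the 9 libraries (points, by group). SLC25A37 carries the most, at means of 109 CPM in untreated, 120.0 in TALE and 112 in dCas9 libraries, and ALAS2 is at 0 because no region lies over it.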

How the data were processed

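RNA was amplified from total RNA with a kit for degraded samples and the cDNA sheared, and MeDIP libraries were pooled before capture with a 5-methylcytosine antibody, per the labels' protocols. The authors deposited raw counts per gene symbol for RNA and raw counts per region for MeDIP, and 1 list of broad peaks per MeDIP sample with a fold enrichment per peak, called per sample. Of the peak lists only the positions were used for results. STAR 2.3.0 and hg19 are named for RNA, and BWA 0.7.5, Picard, MACS2, bedtools and hg19 for MeDIP, per the submitters' processing notes. The counter, its annotation and its use of strand, the rule for regions and the peak settings are not given in the sources used here.

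Groups and replicate numbers came from the sample titles. edgeR 4.0.16 (R 4.3.3) was run on each table (quasi-likelihood test, TMM factors, filterByExpr with a minimum count of 10) in 1 model of 3 group means over all 9 libraries. The filter left 13786 genes and 105652 regions. Benjamini-Hochberg adjustment covered all features tested, with calls at 0.05. Log2 fold changes used a prior count of 0.125, and the SE was derived from the test statistic. For single members an exact permutation test, two-sided, was run on log2(CPM + 0.5), for which the smallest possible p is 0.1. Lengths, positions and CpG counts came from GENCODE on GRCh37, and promoter sequences from RefSeq on GRCh38.p14. The fits were tested on simulated counts. Changes were simulated only in features above a minimum expected count, so recovery was not tested in the thinnest regions.

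All 9 members were named. Other listed genes were named if called or if their unadjusted p was the lowest of their list in a comparison. For MeDIP, each member's region with the lowest p and any region within 2 kb of its start were named, except that a listed gene and the values of a UROS region are not reported here. The members and lists were chosen with earlier results of these data known. Libraries were not treated as paired by replicate number. Deviations from the group means had correlations of -0.284 to 0.103 between same-numbered RNA libraries and of -0.136 to 0.249 between the others. For MeDIP libraries they were -0.00475 to 0.00399 and -0.00815 to 0.00874. With 3 libraries per group and few counts per region, these values cannot decide whether libraries were paired. Alternatives were other scaling factors, DESeq2 1.42.0 for RNA, other filters on low counts, only the 6 libraries compared, the replicate number as a block, and leaving out each library. Coding length was the alternative for levels per kb.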

Additional observations from a re-analysis of the deposited data

How the results depend on the processing

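The count of heme synthesis genes called was 0 under every alternative in each of the 3 RNA comparisons, and so was the count of their MeDIP regions. The 27 fitted log2 fold changes of the members gave 432 values under the alternatives, of which 394 kept their sign and 38, in 17 of the 27, changed it. None passed the threshold, the lowest adjusted p over the alternatives was 0.244, and the largest size of a value that had changed sign was 0.126. The cause of these changes was not tested. PPOX and ALAD had the fewest counts of the members, with 62 to 138 per library.

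With no filter on low counts the log2 fold change turned to 0.014 for FECH in TALE against untreated, to 0.0048 for ALAS2 in dCas9 against untreated and to 0.019 for PPOX in TALE against dCas9, which was 0.0033 with DESeq2. The same setting moved the count of genes called to 74 in TALE against untreated, 89 in dCas9 against untreated and 77 in TALE against dCas9, and of regions to 2 in dCas9 against untreated and 0 in TALE against dCas9. A minimum of 10 counts in every library gave 1 and 2 genes in TALE and dCas9 against untreated, and 1 and 0 regions. With only the 6 libraries compared there were 8 genes and 0 regions in dCas9 against untreated, and DESeq2 called 13 genes there.

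With the replicate block, PPOX in TALE against dCas9 turned to 0.0049, the UROD region chr1:45480991-45481349 in dCas9 against untreated turned to 0.020, and dCas9 against untreated gave 2 genes and 0 regions. The replicate block changed no other call or direction of a member, or of the 10 tested regions named by the rule above. All 28 tested regions were refitted, and the values of the others under the alternatives are not given here.

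Leaving out single libraries gave these ranges of log2 fold change for the members whose sign turned. In TALE against untreated they were -0.048 to 0.12 for UROS, -0.18 to 0.091 for CPOX and -0.068 to 0.072 for FECH. In dCas9 against untreated they were -0.19 to 0.13 for ALAS2, -0.028 to 0.070 for ALAD, -0.025 to 0.14 for UROS, -0.023 to 0.13 for CPOX, -0.20 to 0.012 for FECH and -0.042 to 0.079 for SLC25A37. In TALE against dCas9 they were -0.15 to 0.0079 for ALAS1, -0.030 to 0.28 for ALAS2, -0.0053 to 0.11 for ALAD, -0.10 to 0.065 for UROS, -0.17 to 0.052 for UROD, -0.24 to 0.037 for CPOX, -0.080 to 0.077 for PPOX and -0.034 to 0.18 for FECH. The other members kept their sign. In TALE against untreated their ranges were 0.076 to 0.20 for ALAS1, 0.032 to 0.20 for ALAS2, 0.0083 to 0.14 for ALAD, -0.23 to -0.011 for UROD, 0.091 to 0.24 for PPOX and -0.33 to -0.12 for SLC25A37. In dCas9 against untreated they were 0.13 to 0.29 for ALAS1, -0.12 to -0.027 for UROD and 0.091 to 0.25 for PPOX, and in TALE against dCas9 -0.33 to -0.13 for SLC25A37.

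Counts of genes called ranged from 2 to 16 in TALE against untreated (16 without TALE replicate 3), from 2 to 10 in dCas9 against untreated (10 without TALE replicate 3) and from 0 to 21 in TALE against dCas9 (21 without dCas9 replicate 1). Counts of regions ranged from 0 to 2 in TALE against untreated (2 without untreated replicate 3), from 0 to 3 in dCas9 against untreated (3 without dCas9 replicate 2) and from 0 to 1 in TALE against dCas9 (0 without dCas9 replicate 3).

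Leaving out single libraries also turned some named regions. The UROD region chr1:45480991-45481349 ranged from -0.081 to 1.17 in TALE and from -0.55 to 0.81 in dCas9, each against untreated. In dCas9 against untreated the CPOX region chr3:98305378-98305733 ranged from -0.043 to 0.27, the FECH region chr18:55239719-55239963 from -0.92 to 0.26 and the SLC25A37 region chr8:23428614-23431059 from -0.051 to 0.45. In TALE against dCas9 the ALAD regions chr9:116155028-116155405 and chr9:116164501-116164786 ranged from -0.17 to 0.34 and from -0.55 to 0.049, the PPOX region chr1:161137361-161137597 from -0.58 to 0.19 and that FECH region from -1.28 to 0.30.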
